A study of Mus musculus with 14 samples.

Results

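Igf2bp3 binding was set against RNA level in control muscle stem cells (MuSCs) for the 3974 genes that had both an Igf2bp3-RIP peak and an input value, of 4527 genes in the Igf2bp3-RIP table and 14820 genes in the input table. A gene was a member when at least 1 of the 19465 listed peaks carried its identifier and the input table held a row for it, and 3973 of the members passed the filter on low counts. In RNA immunoprecipitation (RIP), an antibody against a protein pulls down the RNA bound to it, and the input is RNA-seq of the same cells without that step. The comparison used 2 control Igf2bp3-RIP and 2 control input libraries of the 14 libraries in the series. None of the 14 is a pulldown with a control antibody, so RNA held without Igf2bp3 cannot be told apart here. Control MuSCs were mouse skeletal muscle stem cells that carry only the label control for their genotype, were grown on Matrigel-coated plates and received no treatment. The other group, Lin28a+ MuSCs, was sorted from Lin28a-CreERT2; LSL-tdTomato mice, in which an inducible Cre driven by the Lin28a locus switches on a red reporter. The labels do not say which animals gave the control cells or whether replicates were separate cultures. The p-values therefore measure only the spread between these libraries, pooled over input and Igf2bp3-RIP, which may be technical. The level of Lin28a itself was not analysed here.

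Igf2bp3 belongs to a family of RNA-binding proteins that are abundant in embryonic tissues and in tumours and low in most adult tissues. The family was described through RNAs such as Igf2, H19, Myc and Actb, and it reads N6-methyladenosine (m6A), a methyl mark on mRNA, and protects bound mRNAs from decay. In muscle, its members are known from proliferating progenitors rather than from mature fibres.

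Summed counts over peaks were 9215355 and 27592959 in control Igf2bp3-RIP replicates 1 and 2, and summed estimated counts over genes were 5466147 and 6220960 in control input replicates 1 and 2. Every level below is in CPM, the count scaled to its own library's total, and is not scaled to length unless it is given per kilobase of peak. Across the genes tested, Spearman's rho was 0.973 between the Igf2bp3-RIP replicates and 0.998 between the input replicates. Both input replicates held myogenic transcripts, with 11 of 13 myogenic markers listed, among them Pax7 at 139 and 154 CPM, Myod1 at 4542 and 4708 CPM and Myog at 748 and 774 CPM. The summed level of 1 of 6 endothelial markers in the table was 0.501 and 0.392 CPM, that of 5 of 6 macrophage markers 4.00 and 3.24 CPM, and that of 2 of 4 Schwann cell markers 0.536 and 0.844 CPM. Of the fibro-adipogenic markers 4 of 7 were listed, at 122 and 127 CPM in all, nearly all of it Col3a1 at 118 and 120 CPM with Pdgfra at 0.224 and 0.235 CPM. Of the pericyte or smooth muscle markers 5 of 6 were listed, at 5462 and 5543 CPM in all, from Acta2 at 5311 and 5396 CPM and Notch3 at 146 and 143 CPM, whereas Rgs5 was at 2.38 and 2.09 CPM. The part of these cells in the results was not tested.

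The most abundant Igf2bp3-RIP product was H19, an imprinted long non-coding RNA of embryonic muscle and a classical RNA of the Igf2bp family. It held 50470 and 61861 CPM in replicates 1 and 2, or 5.05% and 6.19% of all Igf2bp3-RIP counts, in a single peak of 2528 bases at chr7:142575588-142578115 (mm10), which lay inside the H19 gene. Its Igf2bp3-RIP level per kilobase of peak was 22217 CPM, against 2125 CPM for Pabpc1, the poly(A)-binding protein of the cytoplasm. H19 is 1 of 550 genes in the Igf2bp3-RIP table that were not matched to an input row, which together took 12.3% and 14.1% of the Igf2bp3-RIP counts, so no ratio to input is given for it. The H19 peak also held the hairpin of Mir675, a microRNA made from H19 (chr7:142577064-142577147, minus strand). Of 1005 miRNA hairpins with a RefSeq position, 29 lay wholly within an Igf2bp3-RIP peak, and none of the 29 was a let-7 hairpin, the family whose processing Lin28a is known to block.

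The mature miRNAs of the peaks with the highest levels are shown because these peaks were listed under a miRNA gene or hold its hairpin, while the peaks were wider than the hairpin and lay in a longer host transcript. The sequences are from RefSeq (GRCm38.p6), 5′ to 3′, with the seed (bases 2 to 8) in capitals.
mmu-miR-675-3p: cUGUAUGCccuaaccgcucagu
mmu-miR-675-5p: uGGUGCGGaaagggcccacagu
mmu-miR-568: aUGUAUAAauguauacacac
mmu-miR-5114: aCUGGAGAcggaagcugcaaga
mmu-miR-1902: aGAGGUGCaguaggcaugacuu
mmu-miR-6935-3p: uGUUCUUUgucuuuccacag
No pair of these seeds was identical. A peak listed under Mir568 spanned 16511 bases, in the spans of Tigit and Zbtb20, at 1468 and 1821 CPM. The peak listed under Mir5114 had 642 and 438 CPM and lay in Scd2, which encodes a fatty acid desaturase, and the peak listed under Mir1902 had 412 and 446 CPM and lay in Hipk3, which encodes a kinase. The peak listed under Mir6935 had 451 and 323 CPM and lay in Actg1, the gene of cytoplasmic gamma-actin. In all, 440 peaks were listed under 155 miRNA genes, and 423 of these peaks lay inside another protein-coding or lncRNA gene.

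The first question was which transcripts Igf2bp3-RIP held above or below their RNA level in control cells. Among genes with at least 10 CPM of input, the transcripts of Birc6, Tpr, Ncor1, Ube3a and Dst were among the highest over input. With peaks as listed Acta1, Actg1, Asb5 and Slc25a4 were among the lowest, but their listed peaks lay outside the gene. Counted by position, with the same minimum of input, the lowest were Net1, Acta2 and Maoa. Of 3973 genes, 1714 had a higher Igf2bp3-RIP than input level (43.1%) and 1525 a lower one (38.4%) by edgeR's quasi-likelihood test with a Benjamini-Hochberg adjusted p under 0.05. The log2 ratio is relative to the trimmed mean of the genes tested (TMM factors), and its median was 0.12. With library totals in place of these factors, the median was 1.52, a shift of 1.403, and 2618 genes were called higher and 680 lower. The calls therefore order genes against each other and set no absolute level of binding. The plot of Igf2bp3-RIP level against input level gives all genes tested.

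**Figure D1:**
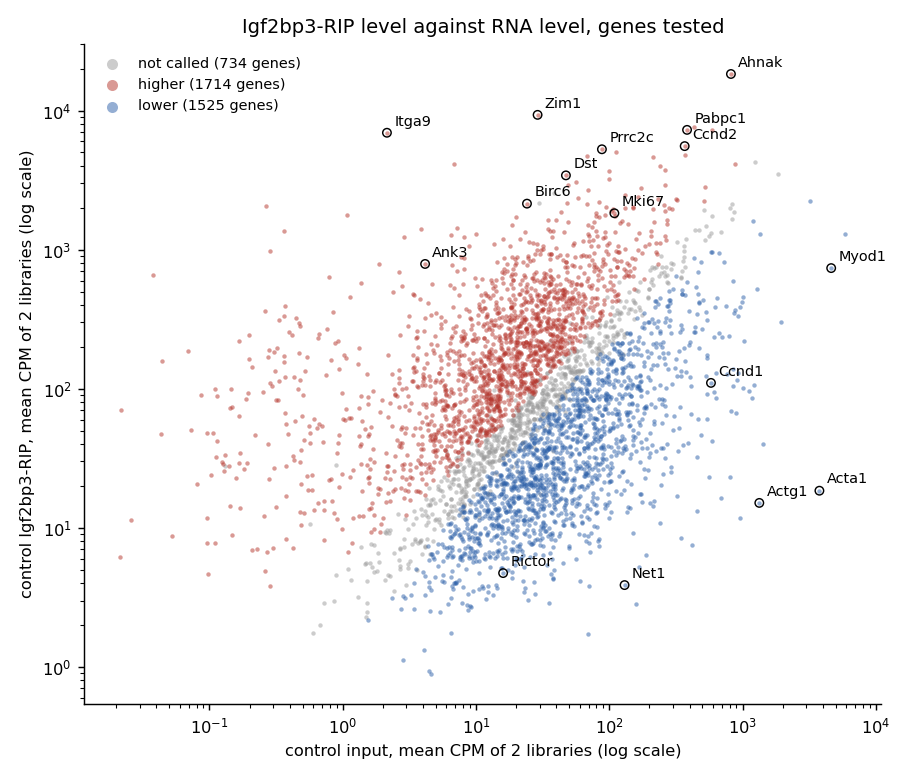
Mean control Igf2bp3-RIP CPM (y axis, log scale) against mean control input CPM (x axis, log scale), each the mean of 2 libraries, for the 3973 genes tested, coloured by whether the ratio was called higher (1714 genes), lower (1525 genes) or not called. Genes with the highest input, such as Acta1 and Myod1, lie on the side of low ratios, and Itga9 stands far above genes of its input level.

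The 12 highest log2 ratios among called genes with at least 10 CPM of input ran from 4.45 to 6.93. Birc6, a giant ubiquitin-conjugating inhibitor of apoptosis, had 23.6 and 24.6 CPM in the input libraries and 2051 and 2235 CPM in the Igf2bp3-RIP libraries, over 52 peaks. Birc6 had a log2 ratio of 5.07 ± 0.18 (SE, adjusted p = 1.06e-04). Tpr, a filament protein of the nuclear pore basket, had 19.5 and 20.2 CPM of input and 2140 and 1308 CPM of Igf2bp3-RIP, a log2 ratio of 5.03 ± 0.29. Ncor1, a scaffold of repressive histone deacetylase complexes, had 18.8 and 18.4 CPM of input and 1684 and 1343 CPM of Igf2bp3-RIP (4.94 ± 0.17). These 3 genes had 52, 36 and 37 peaks, all inside the gene.

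Zeb2, a zinc finger repressor of epithelial genes, had 12.9 and 14.5 CPM of input and 1121 and 1084 CPM of Igf2bp3-RIP (4.92 ± 0.15), and Ube3a, a ubiquitin ligase, had 15.9 and 16.2 CPM of input and 1287 and 1097 CPM of Igf2bp3-RIP (4.80 ± 0.15). Most peaks of Ube3a, the widest among them, also overlapped the span of Snhg14, a long non-coding RNA gene, and reads of the pair cannot be told apart here. Dst, a giant linker between cytoskeletal filaments, held the most peaks of any gene, 72, with 47.0 and 47.5 CPM of input and 2596 and 4249 CPM of Igf2bp3-RIP (4.78 ± 0.35). Wnk1, a kinase of ion transport, had 68.3 and 68.0 CPM of input and 3866 and 5531 CPM of Igf2bp3-RIP (4.71 ± 0.28). For all of these genes the groups of libraries did not overlap in CPM. On this scale, that of library totals, 2618 of 3973 genes tested were called higher, so Igf2bp3-RIP above input was usual. Prrc2c, an RNA-binding protein of stress granules, Rasa1, a Ras GTPase-activating protein, and Epb41l3, a membrane skeleton protein, had log2 ratios of 4.50, 4.48 and 4.45.

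The other 2 of the 12, Zim1 and Plekha3, owed their place to peaks that lay in a neighbour. Zim1, an imprinted zinc finger gene, had 27.1 and 30.9 CPM of input and 8133 and 10509 CPM of Igf2bp3-RIP (6.93 ± 0.27), but 99.3% of its replicate 1 signal was a single peak of 8197 bases at chr7:6703923-6712119 inside Peg3, an imprinted gene beside it. For a count by position, a peak outside its listed gene, or listed under a small RNA, was given to the protein-coding gene or lncRNA whose RefSeq span it overlapped, and to 1 gene alone where spans overlapped (a protein-coding gene first, then the longest overlap, then the shortest gene). By position, Zim1 had 56.1 and 54.1 CPM of Igf2bp3-RIP and a log2 ratio of -0.36 ± 0.12, and Peg3, at 847 and 868 CPM of input, went from a log2 ratio of -0.27 ± 0.19 to 2.42 ± 0.22. For Plekha3, which encodes a lipid-binding adaptor of the Golgi, 12 of 13 peaks lay in Ttn, the gene of the giant sarcomere spring titin. By position, Plekha3 went from 4.50 ± 0.23 to -2.32 ± 0.15, and Ttn from 2.32 ± 0.18 to 4.19 ± 0.22. This assignment by position was chosen after the data were seen.

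The 12 lowest log2 ratios ran from -9.10 to -6.50. Acta1, skeletal muscle alpha-actin, had 3727 and 3820 CPM of input and 22.5 and 14.5 CPM of Igf2bp3-RIP, a log2 ratio of -9.10 ± 0.31 (adjusted p = 1.06e-04). Asb5, a muscle-enriched ankyrin repeat protein, had 948 and 970 CPM of input and 12.6 and 10.8 CPM of Igf2bp3-RIP (-7.77 ± 0.18). Pebp1, an inhibitor of Raf kinase, had 413 and 419 CPM of input and 9.87 and 5.29 CPM of Igf2bp3-RIP (-7.23 ± 0.36). The input values lay above the Igf2bp3-RIP values in each of these genes, but none of them had a peak within its own span: the peak of Acta1 lay in Nup133, that of Asb5 in Spcs3 and that of Pebp1 in Taok3.

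Of the 12 lowest genes, 10 are shown, and the same held for 8 of the 10. Over all genes called lower, 201 lacked a peak inside the gene (13.2%), against 372 of those called higher (21.7%). Atp5l, a subunit of the mitochondrial ATP synthase, and Slc25a4, which exchanges ADP and ATP across the inner mitochondrial membrane, stood at -6.78 and -6.58, with peaks in Ube4a and Cfap97. Mrps28, a mitochondrial ribosomal protein, stood at -6.64 and 1810037I17Rik at -7.40. For Atp5l, Slc25a4, Mrps28 and 1810037I17Rik the listed count is that of peaks outside the gene. Actg1 stood at -7.84 ± 0.42 with its listed peak in Bahcc1, and at -3.08 ± 0.19 when the peak listed under Mir6935 was counted to it. Of the other 2, Rab10, a GTPase of vesicle transport, had 790 and 812 CPM of input and 23.1 CPM and 23.2 CPM of Igf2bp3-RIP in a peak inside the gene (-6.52 ± 0.17), and -3.36 ± 0.12 by position with 3 peaks. Net1, an exchange factor for RhoA, had 131 and 130 CPM of input and 4.34 and 3.41 CPM of Igf2bp3-RIP in a peak inside the gene (-6.50 ± 0.16), and was the lowest by position at 10 CPM of input or more, at -6.38 ± 0.16.

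**Figure D2:**
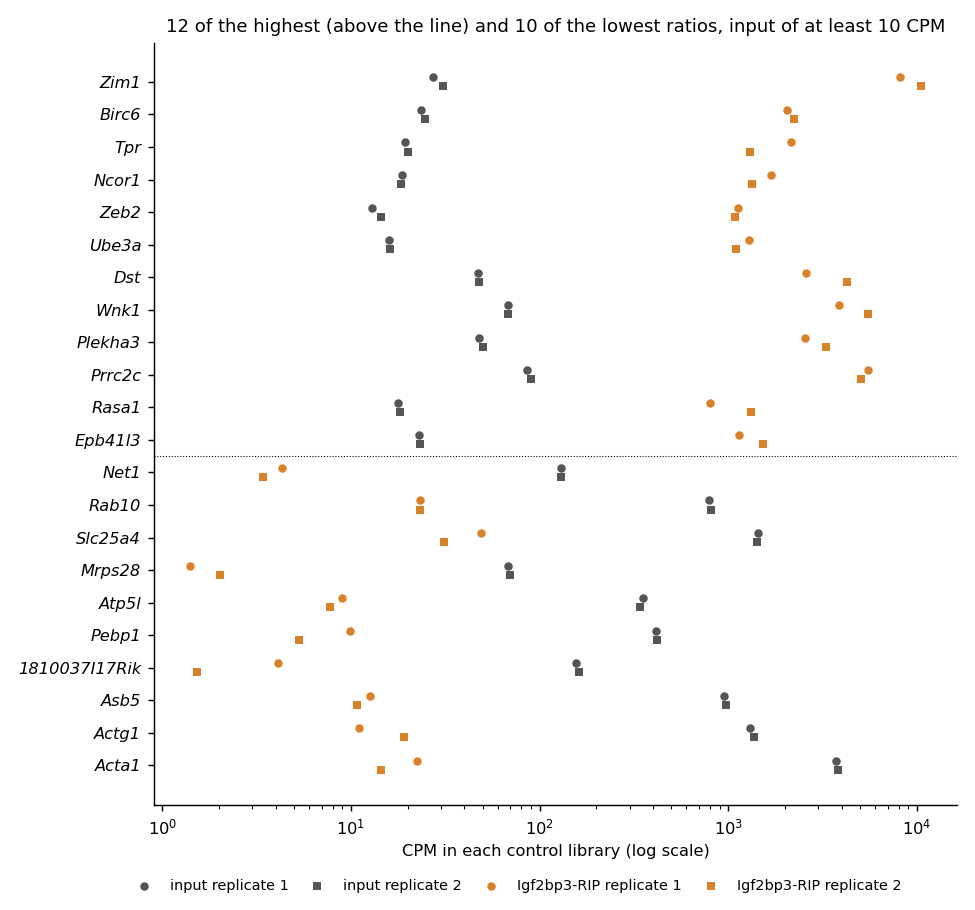
CPM in each of the 4 control libraries (x axis, log scale) for the 12 genes with the highest and 10 of the 12 with the lowest log2 ratio; grey marks input, orange marks Igf2bp3-RIP, circles replicate 1 and squares replicate 2. The input and Igf2bp3-RIP libraries do not overlap in any of the 22 genes, which were chosen by this ratio.

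Peaks outside the gene they were listed under were common: 3772 of 19465 peaks did not overlap the RefSeq span of their gene, and 3509 of the 3772 overlapped another gene. These peaks held 18.6% and 19.1% of the control Igf2bp3-RIP counts. By position, 1589 genes of 3796 tested were higher and 1445 lower, and of the genes called with peaks as listed, 74.4% of the higher and 70.2% of the lower kept their call. There were 98 genes that went from lower to higher and 33 from higher to lower. At 10 CPM of input or more, the highest genes by position were again Birc6 (5.19), Tpr (5.15), Zeb2 (5.11), Ncor1 (5.06) and Ube3a (4.92). The lowest after Net1 were Acta2, smooth muscle alpha-actin, with 5311 and 5396 CPM of input, 259 and 215 CPM of Igf2bp3-RIP and a log2 ratio of -5.78 ± 0.19, and Maoa, which breaks down monoamines, at -5.71 ± 0.23.

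**Figure D3:**
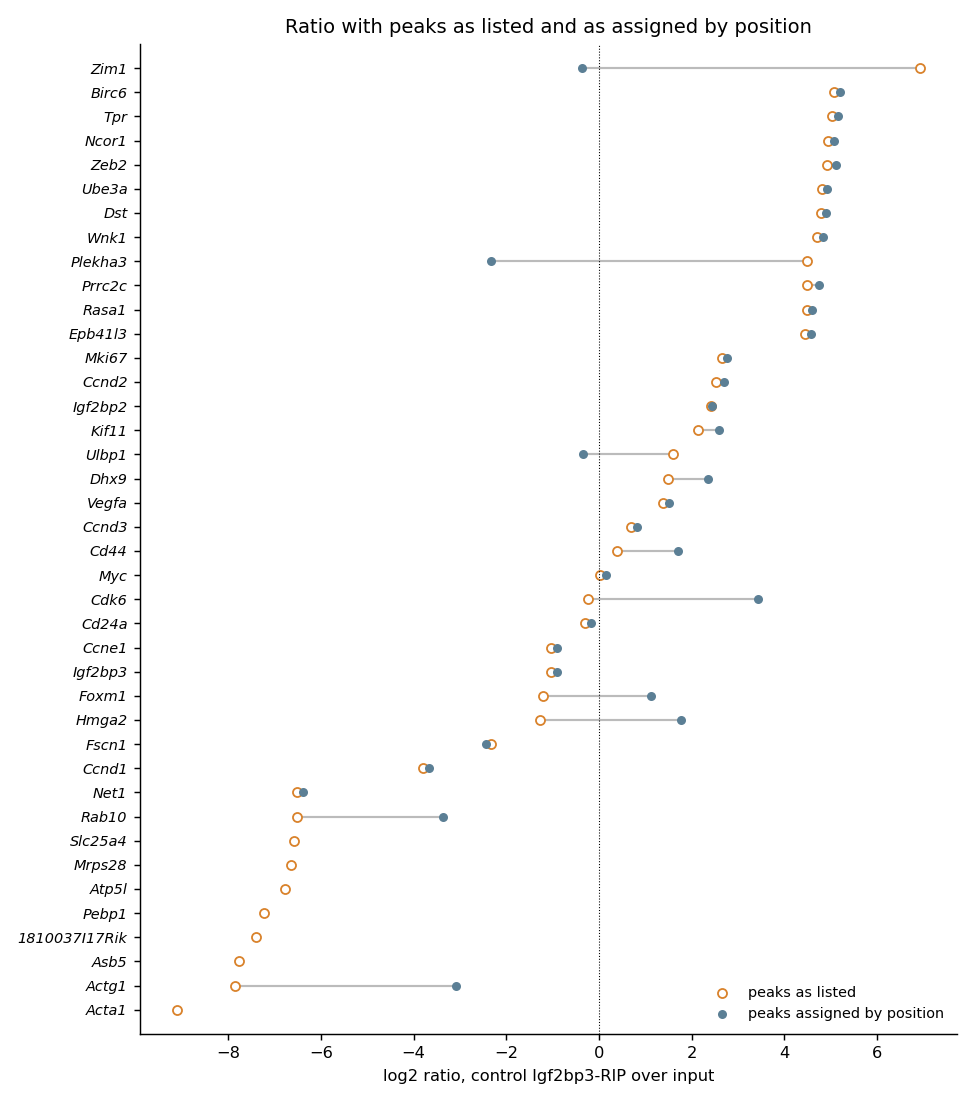
Log2 ratio of control Igf2bp3-RIP over input (x axis) for the 12 highest genes, 10 of the 12 lowest and tested known Igf2bp targets, with peaks as listed (open orange circles) and with peaks assigned to the RefSeq span they overlap (filled blue circles). Zim1, Plekha3 and Ulbp1 cross from above to below 0, Cdk6, Hmga2 and Foxm1 cross from below to above 0, and the genes with an open circle alone have no peak inside their span.

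By summed Igf2bp3-RIP level with peaks as listed, the first 10 genes were H19, Ahnak, Zim1, Nedd4, Peg10, Pabpc1, Itga9, Ccnd2, Prrc2c and Macf1. Ahnak, a giant scaffold protein with a very large last exon, had 802 and 834 CPM of input and 12318 and 24358 CPM of Igf2bp3-RIP, nearly all in a peak of 17656 bases at chr19:9001537-9019192 (log2 ratio 3.10 ± 0.40, adjusted p = 0.00179). Peg10, an imprinted gene derived from a retrotransposon, had 585 and 592 CPM of input and 5860 and 8691 CPM of Igf2bp3-RIP in a single peak of 6507 bases (2.23 ± 0.26). Nedd4, a ubiquitin ligase, had 425 and 444 CPM of input and 7665 and 7553 CPM of Igf2bp3-RIP over 24 listed peaks (2.72 ± 0.14), and 7106 and 6977 CPM over 20 peaks by position. By position Zim1 and Macf1 left this group, and Peg3, at 9734 and 12548 CPM, and Myh9, a non-muscle myosin heavy chain, at 4605 and 7312 CPM, entered it. Pabpc1 had 372 and 395 CPM of input and 6972 and 7566 CPM of Igf2bp3-RIP (2.84 ± 0.16). In Ahnak, Peg10, Nedd4 and Pabpc1 both Igf2bp3-RIP values exceeded both input values, as is usual on the CPM scale.

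Itga9, an integrin subunit, was of another kind, because its Igf2bp3-RIP level was 13741 CPM in replicate 1 and 120 CPM in replicate 2, over 1.72 and 2.58 CPM of input. Its log2 ratio of 10.2 carried an SE of 2.71. Of 4363 peaks with a mean of at least 50 CPM, 5 were more than 10-fold higher in replicate 1, those listed under Itga9, Lrch3, Slc25a33, Kpna1 and Arhgef26, and none was more than 10-fold higher in replicate 2. All 5 were also more than 10-fold higher in replicate 1 than in replicate 2 of the Lin28a+ Igf2bp3-RIP, and 3 of them lay outside the gene they were listed under. They summed to 33642 CPM in replicate 1 and 336 CPM in replicate 2.

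The ratio, for which the counts of a gene's peaks were added, moved with the number of peaks per gene. Genes with a single peak had a median log2 ratio of -1.76, and 12.2% of the 1166 were higher and 72.7% lower. With 4 to 9 peaks the median was 1.11, with 10 to 19 peaks 2.38, and with 20 to 72 peaks 3.58, where 75 of 75 genes were higher. With the highest peak in place of the sum, the medians were -0.72 for a single peak, 0.56 for 4 to 9, 1.11 for 10 to 19 and 1.32 for 20 to 72 peaks. With the mean over a gene's peaks, they were -0.18 for a single peak and 0.12 for 20 to 72 peaks. Over the 3973 genes, Spearman's rho with the log2 ratio was 0.62 for the number of peaks (0.34 with the highest peak and 0.080 with the mean over peaks) and 0.70 for the summed peak width, and it was -0.47 for input level. The log2 ratio has input level in its denominator, and these values are given as descriptions over genes of the same 4 libraries.

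Nedd4 (-0.28), Macf1 (-0.26) and Kif11 (-0.18) lay below 0 with the mean over peaks, whereas Birc6 (0.95), Ncor1 (1.30), Zeb2 (3.18), Ube3a (3.06), Ahnak (3.09) and Peg10 (3.81) stayed above 0. Macf1, a giant linker of actin filaments and microtubules, had 111 and 113 CPM of input and 3937 and 6193 CPM of Igf2bp3-RIP over 62 peaks, a log2 ratio of 4.11 ± 0.32 for the sum. The level of Peg10 and nearly all of that of Ahnak lay in 1 wide peak each, and that of Macf1 and of Dst (0.20 with the mean over peaks) was spread over many peaks.

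The input values moved with the number of transcripts of a gene. Of the input rows, 45.7% held values that became whole, within 0.002, when multiplied by the same number of at most 20 in every library, as a mean over that many transcripts would. The median ratio was -1.08 for genes with 1 RefSeq transcript and 1.46 for genes with 11 or more. Among the 1750 genes with such a divisor, multiplying the input by it changed the counts from 767 higher and 660 lower to 690 higher and 711 lower, with 78.5% of the higher and 86.7% of the lower calls kept. In these genes the medians for 1 transcript and for 11 or more were -1.02 and 1.26 as deposited and -0.44 and 0.23 after multiplication, with 0.42 for 7 to 10 transcripts. Rasa1, with a divisor of 10, went from 4.70 as deposited to 3.40 after multiplication, both in the fit to these genes. No divisor was recovered for Ncor1, Epb41l3, Dst, Wnk1 and Birc6, with 53, 50, 36, 22 and 21 RefSeq transcripts. The same held for Ank3, Tcf4 and Atxn2, with 54, 50 and 40. Numbers above 20 were not searched, so the high ratios of these genes could not be corrected, and the part of transcript number in them was not tested.

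Positions of peaks along genes were skewed to the 3′ end. Of 12572 peaks inside a gene of known strand, 28.7% lay in the last 10% of the gene's length and 3.17% in the first 10%. These peaks at the 3′ end held 28.4% and 31.2% of the counts in replicates 1 and 2. The share in the last 10% was 28.0% for genes called higher and 28.8% for genes called lower. Introns count in this measure, so a long last exon and a short first exon enter it.

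The next comparison was by function, over gene lists. Chromatin modifiers held a peak in 50 of 53 expressed members (input of at least 5 CPM), ubiquitin ligases and deubiquitinases in 34 of 36, giant cytoskeletal transcripts in 15 of 16, and stress granule proteins in 21 of 23, where 3486 of all 9450 expressed genes (36.9%) held one. At the other end, 5 of 79 ribosomal proteins, 8 of 73 respiratory chain subunits, 1 of 13 histones, 4 of 31 proteasome subunits and 0 of 13 mitochondrially encoded mRNAs held a peak. By position the count was 2 for ribosomal proteins, 2 for respiratory chain subunits and 5 for proteasome subunits. These lists differ in length as well as in function, with a median RefSeq span of 82.6 kb for chromatin modifiers and 3.16 kb for ribosomal proteins, and the part of length was not tested.

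Among the 17 giant cytoskeletal transcripts tested, 15 were higher and 0 lower, where 43.1% of all genes tested were higher and 38.4% lower, with a median log2 ratio of 3.10 against 0.12 over all genes tested. The highest was Ank3, the membrane adaptor ankyrin-G, with 4.09 and 4.20 CPM of input and 647 and 932 CPM of Igf2bp3-RIP (6.19 ± 0.31). Syne1, a nuclear envelope spectrin repeat protein, was lowest, with 23.4 and 26.0 CPM of input and 85.3 and 68.2 CPM of Igf2bp3-RIP, and did not pass the test (0.22 ± 0.15).

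Chromatin modifiers had 40 of 52 members higher and 7 lower, against 43.1% and 38.4% of all genes tested, with a median of 2.13. Over the 17 with a divisor, 11 were higher and 6 lower as deposited (median 1.74). With input times the divisor 9 were higher and 6 lower (median 0.81). Atrx, a chromatin remodeller of heterochromatin, had 7.57 and 7.90 CPM of input and 1124 and 658 CPM of Igf2bp3-RIP (5.44 ± 0.32), and Ncor1 came next. Kdm4a, a histone lysine demethylase, was the lowest at -3.13 ± 0.13, with 52.9 and 51.9 CPM of input and 15.6 and 15.9 CPM of Igf2bp3-RIP in a single peak. Ubiquitin ligases and deubiquitinases had 30 of 35 members higher and 5 lower (median 1.94), from Rnf213 at -3.35 ± 0.18 to Birc6. Over the 22 with a divisor, their median went from 2.11 as deposited to 1.15 with input times the divisor.

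Of 21 stress granule proteins, 17 were higher and 2 lower (median 1.75), against 43.1% and 38.4% of all genes tested. Over the 7 with a divisor, the median went from 1.26 as deposited to 0.71 with input times the divisor. Atxn2, an RNA-binding protein that joins stress granules, had 21.2 and 21.8 CPM of input and 1317 and 1061 CPM of Igf2bp3-RIP (4.38 ± 0.16). Taf15, a nuclear RNA-binding protein, stood lowest, with 42.2 and 39.6 CPM of input and 35.4 and 18.3 CPM of Igf2bp3-RIP (-2.05 ± 0.32). G3bp1, the nucleator of stress granules, held no listed peak at 531 and 547 CPM of input, and 1 peak by position.

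Cell cycle and mitosis genes had 26 of 37 members higher and 7 lower, against 43.1% and 38.4% of all genes tested, with a median of 1.91. Ect2, the exchange factor that drives cytokinesis, was the highest, with 9.70 and 10.6 CPM of input and 530 and 575 CPM of Igf2bp3-RIP (4.36 ± 0.16). The D-type cyclins, which open the way from G1 to S phase, fell apart. Ccnd2 had 359 and 377 CPM of input and 4195 and 6916 CPM of Igf2bp3-RIP over 5 peaks (2.52 ± 0.32), Ccnd3 had 148 and 153 CPM of input and 534 and 755 CPM of Igf2bp3-RIP (0.70 ± 0.23), and Ccnd1 had 575 and 584 CPM of input and 85.4 and 135 CPM of Igf2bp3-RIP in a single peak of 200 bases (-3.79 ± 0.31). With library totals the same 3 log2 ratios were 3.92, 2.10 and -2.39. DNA repair genes had 19 of 38 members higher and 9 lower (median 0.74), near the 43.1% higher of all genes tested, and 27 higher and 2 lower with library totals. They ran from Xrcc5, the Ku80 subunit that binds broken ends, at -5.19 ± 0.44 to Brca2, which acts in homologous recombination, at 4.40 ± 0.27.

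The m6A readers, writers and erasers had 5 of 18 members higher and 9 lower, against 43.1% and 38.4% of all genes tested, with a median of -0.41, which became 0.99 with library totals (10 higher and 3 lower). Fmr1, a translational repressor that reads m6A, was the highest, with 12.4 and 13.4 CPM of input and 664 and 553 CPM of Igf2bp3-RIP (4.15 ± 0.14). Rbm15b, an adaptor of the methyltransferase complex, was the lowest at -2.36 ± 0.11, with 2 of its 3 peaks outside the gene, and at -3.71 ± 0.11 by position.

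Myogenic and progenitor transcription factors had 6 of 12 members higher and 5 lower, close to the 43.1% and 38.4% of all genes tested, and 8 higher and 3 lower with library totals. Tcf4, a partner of myogenic factors, had 6.13 and 6.89 CPM of input and 1334 and 1228 CPM of Igf2bp3-RIP over 13 peaks (6.20 ± 0.16). Myod1, the determination factor of myoblasts, had 4542 and 4708 CPM of input and 818 and 656 CPM of Igf2bp3-RIP in a single peak inside the gene (-4.06 ± 0.16, adjusted p = 1.06e-04). Pax7, the marker of satellite cells, had 92.6 and 84.0 CPM of Igf2bp3-RIP over 4 peaks (-2.14 ± 0.12), and -0.29 ± 0.12 by position with 7 peaks. Myf5, which acts beside Myod1, had 441 and 464 CPM of input and 371 and 319 CPM of Igf2bp3-RIP (-1.80 ± 0.13), and Myog, which drives differentiation, held no peak. With library totals and peaks as listed Myod1 and Pax7 stayed below 0, at -2.65 and -0.73, but by position Pax7 had 279.5 and 305.8 CPM of Igf2bp3-RIP, above its 139 and 154 CPM of input.

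Ribosomal proteins, S100 proteins and annexins, and antioxidant and redox genes had 0 members higher with peaks as listed, where 43.1% of all genes tested were higher and 38.4% lower. Of 5 ribosomal proteins tested, 5 were lower (median -5.17), among them Rps6, Rpl15 and Rps13, and 2 of 79 held a peak inside their span. S100 proteins and annexins, calcium-binding proteins, had 6 of 6 members lower (median -3.01), 4 of 6 with library totals (median -1.61) and 4 of 5 by position (median -1.48). They ran from Anxa6 at -4.29 ± 0.18 (-1.48 ± 0.11 by position, with 4 peaks in place of 1) to Anxa3 at -0.97 ± 0.22 (0.43 with library totals), whose 4 peaks all lay outside the gene, and S100a6, S100a10, S100a4 and Anxa2 held no peak. Of antioxidant and redox genes 6 of 28 held a peak, with 4 lower and 0 higher of 6 tested (3 lower and 2 higher with library totals, where their median went from -1.49 to -0.09), the lowest being Sod1, cytosolic superoxide dismutase, at -4.81 ± 0.17, whose peak lay outside the gene. Of sarcomere genes 3 of 23 had a listed peak, Acta1, Myl1 and Ttn, and 2 of 23 had one by position, since that of Acta1 lay in Nup133. Collagens had a peak in 8 of 12 expressed members, of which 0 were higher and 3 lower (median -0.33, and 1.07 with 5 higher and 0 lower with library totals).

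The other lists stood between these, and are read against the 43.1% higher and 38.4% lower of all genes tested. Translation factors had 7 of 16 members higher and 8 lower, from Eif3b (-4.65) to Eif4g1 (3.01), and spliceosome and hnRNP genes 22 of 38 higher and 10 lower, from Hnrnpa0 (-3.63) to Hnrnpu (3.86). The actin cytoskeleton had 14 of 25 higher and 7 lower, from Actg1 to Rock1 (3.71), and integrins and laminins 6 of 8 higher and 1 lower, from Itgb5 (-0.82) to Itga9. DNA replication genes had 8 of 15 higher and 5 lower, from Mcm6 (-2.50) to Orc4 (2.44), and IGF and insulin signalling genes 7 of 17 higher and 7 lower, from Rictor (-3.11, and 1.69 by position with 9 peaks) to Plagl1 (3.73). Matrix and matricellular proteins had 5 of 12 higher and 4 lower, chaperones and the secretory pathway 5 of 15 higher and 6 lower, respiratory chain subunits 1 of 8 higher and 5 lower (1 of 2 higher and 1 lower by position), glycolysis 1 of 5 higher and 3 lower, and proteasome subunits 0 of 4 higher and 4 lower. By position 1 of 5 proteasome subunits was higher, Psmd1 at 0.38 ± 0.13 (adjusted p = 0.0427), which stood at -1.02 ± 0.13 as listed. With library totals DNA replication had 11 higher and 1 lower, IGF and insulin signalling 13 and 3, translation factors 10 and 6, spliceosome and hnRNP genes 30 and 4, matrix and matricellular proteins 9 and 3, chaperones and the secretory pathway 9 and 2, respiratory chain subunits 3 and 4, glycolysis 2 and 3, and proteasome subunits 0 and 1. On that scale the medians of chaperones and the secretory pathway (-0.03), sarcomere genes (-0.50) and proteasome subunits (-1.41) became 1.38, 0.90 and 0.01, and Itgb5 stood at 0.57. Over 14 spliceosome and hnRNP genes with a divisor, 8 were higher and 5 lower as deposited (median 0.73). With input times the divisor 5 were higher and 8 lower (median -0.78). The median of 4 translation factors went from 1.27 to -0.05, that of all 1750 genes with a divisor from 0.19 to 0.01. Cell cycle and mitosis genes went up, from 1.69 to 1.90, as did matrix and matricellular proteins, from 3.32 to 3.63.

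**Figure D4:**
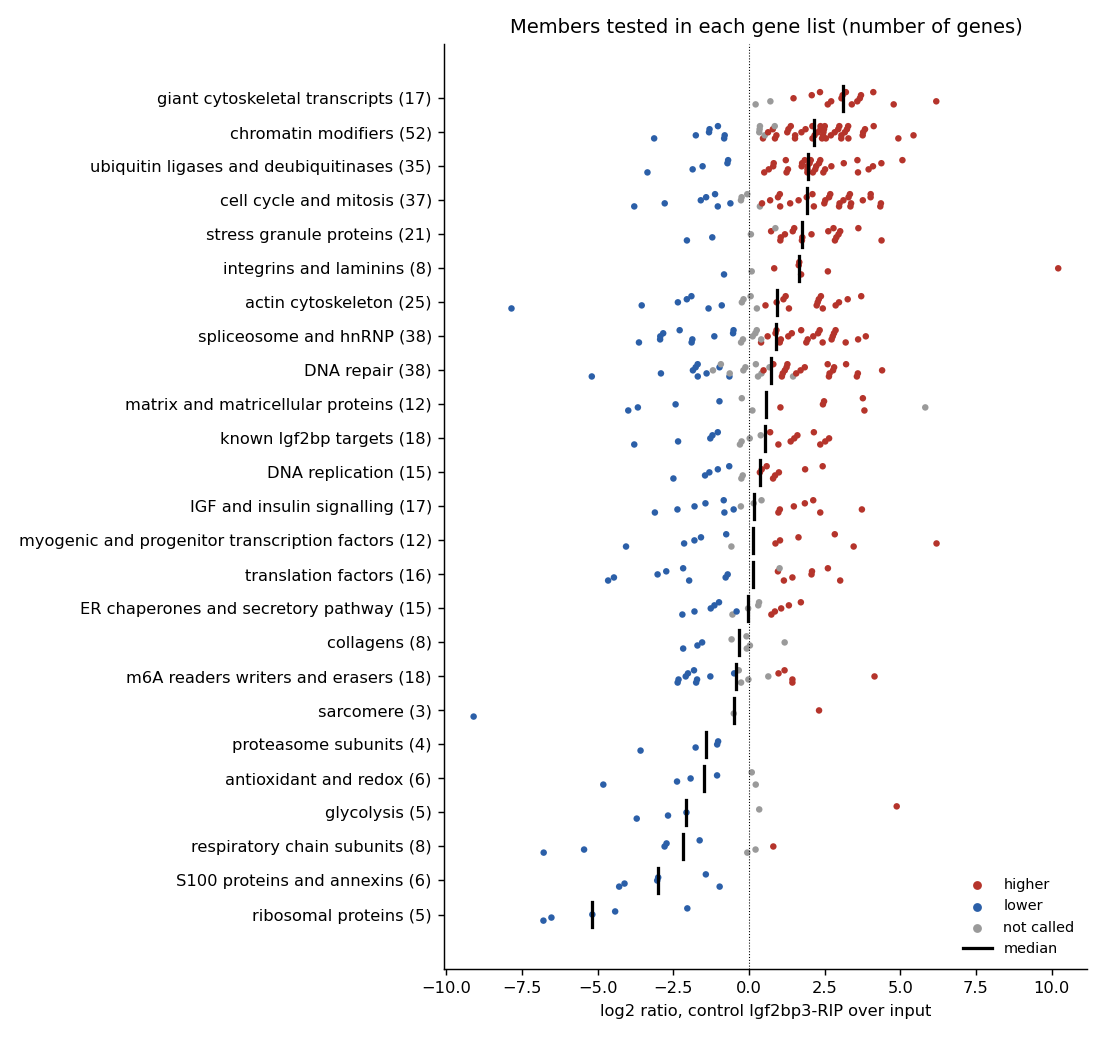
Log2 ratio of control Igf2bp3-RIP over input (x axis) of each tested member of the gene lists with at least 3 tested members, coloured by call, with the list's median as a black bar; the number of tested members stands in parentheses. Giant cytoskeletal transcripts have the highest median (3.10) and ribosomal proteins the lowest (-5.17), and library totals in place of TMM factors would move the median of all genes up by 1.403.

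RNAs through which the Igf2bp family is known held a peak in 18 of 25 expressed members, against 36.9% of all expressed genes. Of the 18 tested, 9 were higher and 5 lower, with a median of 0.55, where 43.1% of all genes tested were higher and 38.4% lower. With library totals 13 were higher and 2 lower. By position 13 of 19 were higher and 3 lower, with a median of 1.12. Mki67, the proliferation antigen, had 106 and 112 CPM of input and 2267 and 1389 CPM of Igf2bp3-RIP (2.65 ± 0.26, adjusted p = 6.39e-04). Kif11, a motor of the spindle, had 27.0 and 29.1 CPM of input and 334 and 324 CPM of Igf2bp3-RIP (2.14 ± 0.12). In both genes the Igf2bp3-RIP libraries exceeded the input libraries throughout, as is usual on the CPM scale.

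Dhx9, an RNA helicase, stood at 1.498 ± 0.22 (-0.078 with the highest peak, -0.39 with the mean over peaks, and 2.34 by position with 17 peaks in place of 11) and Vegfa, the vascular growth factor, at 1.38 ± 0.13. Myc had 11.4 and 9.90 CPM of input and 36.9 and 21.5 CPM of Igf2bp3-RIP and did not pass the test (0.03 ± 0.29), nor did Cd24a, a surface glycoprotein, at -0.30 ± 0.23 (1.10 with library totals). Cd44, the hyaluronan receptor, did not pass it as listed at 0.39 ± 0.45. By position, with 7 peaks in place of 3, Cd44 passed it at 1.71 ± 0.35. Ulbp1, a ligand of natural killer cells, stood at 1.60 ± 0.14 with 4 of its 5 peaks outside the gene, and at -0.35 ± 0.21 by position. Fscn1, an actin bundler, was lower at -2.34 ± 0.23, and Ccne1, cyclin E1, at -1.03 ± 0.21, although Ccne1 was at 0.39 with library totals.

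The assignment of peaks decided the place of several of these RNAs. Hmga2, a chromatin protein of embryonic cells, had 139 and 135 CPM of input and 97.6 and 198 CPM of Igf2bp3-RIP over its 3 listed peaks (-1.28 ± 0.39, adjusted p = 0.0321). A peak of 3164 bases at chr10:120361283-120364446, at 605 and 1358 CPM, lay in Hmga2 but was listed under 9230105E05Rik. It also overlapped the spans of 1700006J14Rik and Gm40783, and reads of these genes cannot be told apart here. With this peak the log2 ratio of Hmga2 was 1.77 ± 0.44 (0.11 as listed with library totals). Cdk6, the partner of D-type cyclins, had 3 listed peaks (-0.24 ± 0.27, and 1.15 with library totals) and 11 by position (3.43 ± 0.29). Foxm1, a transcription factor of mitotic genes, went from -1.21 ± 0.12 (0.20 with library totals) to 1.12 ± 0.12, and Hmga1, with no listed peak, had 324 and 357 CPM of Igf2bp3-RIP over 92.4 and 94.3 CPM of input by position (0.58 ± 0.12).

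Igf2, Actb, Tmsb4x, Eif4ebp1, Ptgs2 and Tk1 held no listed peak, at 862 and 902 CPM of input for Igf2 and 1161 and 1192 CPM for Actb. Lin28b, Mmp9, Sox2 and Mycn were in neither table. In the family itself, Igf2bp1 was at 0.366 and 0.386 CPM of input with no peak. Igf2bp2 had 27.1 and 29.5 CPM of input and 364 and 436 CPM of Igf2bp3-RIP over 7 peaks (2.42 ± 0.17). Igf2bp3 had 11.3 and 10.7 CPM of input and 15.3 and 13.3 CPM of Igf2bp3-RIP over 2 peaks, so that its own transcript was lower at -1.03 ± 0.16 (adjusted p = 0.00299), and at 0.37 with library totals, where it did not pass the test.

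The second question was which RNAs were abundant in control cells and yet held no Igf2bp3-RIP peak. The share of genes with a peak rose from 5.70% below 1 CPM of input to 44.8% between 100 and 200 CPM, and was 17.1% at 1000 CPM or more, 18 of 105 genes. Of 1399 genes with at least 100 CPM of input, 567 held a peak (40.5%) and 832 did not, of which 780 were protein-coding, 13 mitochondrially encoded and 27 pseudogenes. These 832 genes held 59.7% and 58.6% of the input counts in replicates 1 and 2, and the 3974 members 26.1% and 26.9%. The share of abundant genes with a peak inside their span was 42.7%.

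**Figure D5:**
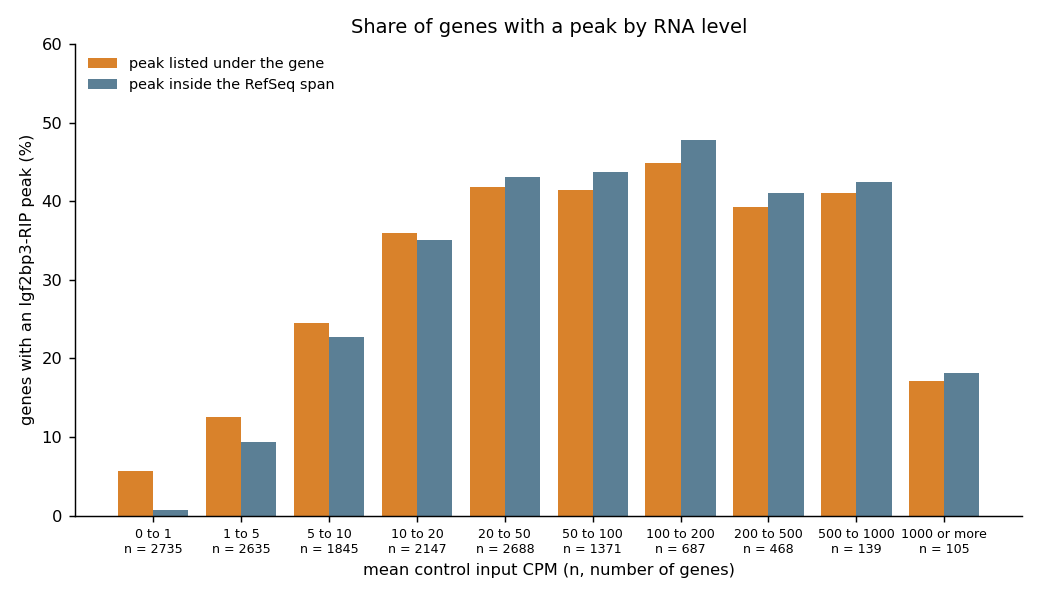
Share of genes with an Igf2bp3-RIP peak (y axis, %) by mean control input CPM (x axis, with the number of genes n), for peaks as listed (orange) and for peaks inside the RefSeq span (blue). The share rises to 44.8% as listed between 100 and 200 CPM and is 17.1% at 1000 CPM or more.

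The RNAs with the most input and no peak were led by mitochondrial transcripts. The transcript mt-Co1, of a subunit of cytochrome oxidase, had 64235 and 65735 CPM, mt-Co3 19625 and 20812 CPM, mt-Atp6 15491 and 15721 CPM, mt-Cytb 14752 and 15053 CPM, mt-Nd1 13656 and 13836 CPM, mt-Nd5 9619 and 9851 CPM, mt-Co2 9807 and 8292 CPM, and mt-Nd4 7628 and 7745 CPM. All 13 mitochondrially encoded mRNAs lacked a peak, at 17.0% and 17.2% of the input counts, and no peak in the table lay on the mitochondrial chromosome. The files do not tell whether reads of that chromosome were kept for peak calling.

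Among the others, Gm19220, listed by RefSeq as a pseudogene, had 43113 and 22581 CPM, and Gm28661 had 9075 and 10348 CPM. Lars2, the mitochondrial leucyl-tRNA synthetase, had 19257 and 20394 CPM, a RefSeq span of 95.7 kb and no peak by either assignment. Whether these counts come from its mRNA was not tested. Lgals1, a galectin of myoblasts, had 7178 and 7225 CPM. Other protein-coding genes without a peak by either assignment included Eef2 and Eef1a1, elongation factors of translation, at 6651 and 6922 CPM and at 4847 and 4852 CPM, Rplp1, of the large ribosomal subunit, at 6871 and 6644 CPM, and Tuba1a, an alpha-tubulin, at 5026 and 5125 CPM. These last 4 were named after their values were seen.

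Peaks by position changed part of this group. Of the 832 genes, 83 had a peak inside their span that was listed under another gene, and 52 abundant genes with a listed peak had none by position. Timp2, an inhibitor of matrix proteases, had 2604 and 2757 CPM of input and 893 and 1382 CPM of Igf2bp3-RIP in 2 such peaks (-2.51 ± 0.29), and Igfbp5, an IGF-binding protein of myoblasts, had 728 and 758 CPM of input and 2023 and 1476 CPM of Igf2bp3-RIP in a peak of 4502 bases listed under Igfbp2 (-0.06 ± 0.17). Acta2, given above, was another. With their own peaks counted, Timp2 and Acta2 lay below the centre of the tested genes and Igfbp5 near it.

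Length moved with the presence of a peak among abundant protein-coding genes. A peak was listed for 60 of 291 genes with a RefSeq span under 5 kb (20.6%) and for 46 of 56 genes with a span of at least 100 kb (82.1%), and inside the span for 15.5% and 92.9%. The median input was 273 CPM in the shortest group and 158 CPM in the longest. Expressed genes without a peak had a median span of 16.0 kb, genes called lower 29.3 kb and genes called higher 54.5 kb. The part of length and of input level in the presence of a peak was not tested.

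Other readouts of the series were set beside these classes, as shares of genes. An m6A-RIP row, which marks m6A enrichment in the deposited table, was found for 85.1% of the genes called higher, 80.7% of those called lower and 64.4% of expressed genes without an Igf2bp3-RIP peak, against 72.1% of all expressed genes. A Lin28a-RIP peak, measured in Lin28a+ MuSCs, was found for 76.4% of the genes called higher, 45.7% of those called lower and 8.92% of expressed genes without an Igf2bp3-RIP peak, against 28.7% of all expressed genes. Of the 832 abundant genes without an Igf2bp3-RIP peak, 599 had an m6A-RIP row and 74 a Lin28a-RIP peak. Input level and length differed between these classes as given above, and their part in the shares was not tested.

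The same measure in Lin28a+ MuSCs used other libraries, with 2 Igf2bp3-RIP and 2 input libraries of these cells, whose input columns carry m6A-RIP names in the deposited input table. Of 3970 genes, 1741 were higher (43.9%) and 1523 lower (38.4%). Of the 1713 genes called higher in control cells and tested in both, 1598 were also called higher in Lin28a+ cells, 93.3% of the control calls and 91.8% of the Lin28a+ calls. Of 1522 genes called lower, 1373 were called lower in both, 90.2% of each list, and 6 and 4 genes had the opposite call. Among the genes above, the log2 ratio in Lin28a+ cells was 5.50 ± 0.22 for Birc6, 5.88 ± 0.20 for Tpr, 6.08 ± 0.26 for Zeb2, -8.53 ± 0.30 for Acta1, -5.05 ± 0.12 for Net1 and -4.98 ± 0.38 for Myod1. Peaks as listed, transcript numbers and lengths are shared by both groups of cells.

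The difference of the ratio between Lin28a+ and control MuSCs was tested as an interaction over the 8 libraries. Of 3974 genes, 13 had a higher ratio in Lin28a+ cells (0.327%) and 26 a lower one (0.654%), but with library totals 206 were higher and 34 lower. The Igf2bp3-RIP libraries of both groups share replicate numbers, and the 5 peaks given above differed between replicates in the same direction in both, and whether a shared number means a shared batch is not given in the labels. With a replicate block over the Igf2bp3-RIP libraries, 208 genes were higher and 254 lower. The 39 calls rested on all 4 input libraries, since none passed when any of them was left out, although 495 to 527 genes then had an unadjusted p under 0.05. Without control Igf2bp3-RIP replicate 1 or 2 the calls numbered 97 and 106, and without Lin28a+ Igf2bp3-RIP replicate 1 or 2 they numbered 579 and 181.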

How the data were processed

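Igf2bp3-RIP and input libraries of control and Lin28a+ MuSCs were used, with Lin28a-RIP and m6A-RIP rows only as presence. The authors deposited whole-number read counts per peak for each RIP library, in 1 table of peaks annotated to genes. For the input they deposited estimated counts per gene, which were often not whole and were rounded here for the tests. Per the labels, tools were FastQC, HISAT2 2.0.4, MACS2 1.4.3 and DESeq2 1.42.0, and the builds named were GRCh38 and mm10. Peak positions were read as mm10, since 80.6% of peaks lay inside the span of their gene in RefSeq GRCm38.p6. The 99.9% of peaks on the chromosome of their gene point to mouse but not to a build. The counting program, the peak threshold and how replicates were pooled for peaks are not given in the sources used here. The Lin28a+ input columns carry m6A-RIP names in the table and were taken as input because the labels of the Lin28a+ input samples point to this table.

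Counts of all peaks with a gene's identifier were summed and joined to input by symbol. TMM factors, the edgeR 4.0.16 filter on low counts and its quasi-likelihood test (R 4.3.3) were run over all joined genes, with Benjamini-Hochberg adjustment and a threshold of 0.05. The difference between groups was an interaction over 8 libraries. TMM factors were 0.609 and 0.619 for control input and 1.68 and 1.58 for control Igf2bp3-RIP. On simulated data of 3973 genes for the control comparison, 63.6% of 2-fold changes, 100% of 4-fold and 8-fold changes and 0.133% of unchanged genes were called. The simulation changed few genes, in both directions, and drew all libraries with the same dispersion (biological coefficient of variation 18.5%). In the data 43.1% of genes were called higher and 38.4% lower, and the kinds of library differed in spread, so these rates do not carry over to the calls. Control input replicates differed by less than sampling noise as deposited (chi-square per degree of freedom 0.438), but by more over 1023 genes with whole-number values (53.4), and were kept as 2 samples. For the control Igf2bp3-RIP replicates the value was 373. The test pools the spread of both kinds of library for each gene, so SEs and p-values may understate that between Igf2bp3-RIP replicates.

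Genes named were the 12 highest and 12 lowest called ratios at 10 CPM of input or more, the 10 highest Igf2bp3-RIP levels, the 12 most abundant genes without a peak, the known targets and family, the highest and lowest member of each list, and up to 3 differences in each direction. Genes named for peaks by position, or beyond these, were chosen after their values were seen. Some genes that these rules name are not reported here, but stay in every fit and count. Members and lists were chosen with earlier results of these data known. Alternatives were library totals, DESeq2, other filters, a replicate block, the highest peak or mean over peaks, whole-number input, peaks by position, input times its divisor and each library left out. There were 2 columns of sample values that were not used.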

Additional observations from a re-analysis of the deposited data

Results flagged for a closer look

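The ratio of Igf2bp3-RIP over input differed between Lin28a+ and control MuSCs in 39 genes by the interaction term of edgeR's quasi-likelihood test with Benjamini-Hochberg adjustment, and 5 of those with the smallest p are given here, as differences of the log2 ratios ± SE.

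Mocs1, an enzyme of molybdenum cofactor synthesis, differed by 3.86 ± 0.28 (adjusted p = 0.00687). Its input values, 4.37 and 4.75 CPM for control and 4.38 and 5.58 CPM for Lin28a+ cells, overlapped, whereas its Igf2bp3-RIP values, from peaks in Daam2, were 0.868 and 0.906 CPM against 17.6 and 16.0 CPM. Cavin4, a muscle caveolae protein, differed by 2.65 ± 0.21 (adjusted p = 0.00760), with 329.8 and 334 CPM of input for control against 63.7 and 55.5 CPM for Lin28a+ cells, and its peak in Tmeff1. Adra2a, an adrenergic receptor, differed by 3.19 ± 0.37 (adjusted p = 0.0320), with peaks in Shoc2. In Cavin4 and Adra2a the input was lower in Lin28a+ cells without overlap.

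BC034090 differed by -3.68 ± 0.27 (adjusted p = 0.00687), with 2.09 and 2.57 CPM of input for control against 20.1 and 19.6 CPM for Lin28a+ cells, and peaks in Xpr1. Pold2, a subunit of DNA polymerase delta, differed by -4.76 ± 0.39 (adjusted p = 0.00766), with 23.9 and 39.4 CPM of Igf2bp3-RIP for control against 3.88 and 3.16 CPM for Lin28a+ cells, from a peak in Aebp1. For these 5 genes the Igf2bp3-RIP values are those of a peak in a neighbouring gene. All 5 calls were lost when any of the 4 input libraries was left out.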

How the results depend on the processing

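With library totals, 2618 genes were higher and 680 lower in control cells, 2675 and 617 in Lin28a+ cells, and 240 differed between them, 206 of them higher. In fits to fewer genes, whole-number input gave 127 calls, 63 higher and 64 lower, genes with a recovered divisor 1427 (767 and 660), and input times that divisor 1401 (690 and 711). The share of expressed genes with a peak was 31.6% at 1 CPM, 41.4% at 20 CPM and 26.5% with at least 2 peaks, and abundant genes without a peak numbered 1635 at 50 CPM and 453 at 200 CPM. Leaving out a library gave 2751 to 3681 calls in control cells. For the difference it gave 0 to 579 calls (0 to 276 higher, 0 to 303 lower): 0 without control input replicate 1 or 2 or Lin28a+ input library a or b, where 495 to 527 genes had an unadjusted p under 0.05, and 97, 106, 579 and 181 without control Igf2bp3-RIP replicate 1 or 2 or Lin28a+ Igf2bp3-RIP replicate 1 or 2. DESeq2 called 68 differences, 29 of them higher. The causes were not tested.

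Control input and Igf2bp3-RIP libraries shared only a number, with a correlation of -0.0116 between same-numbered deviations. With the replicate block, 3313 genes were called (1739 higher, 1574 lower), and 462 differences (208 higher, 254 lower) where the block covered the Igf2bp3-RIP libraries only.

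Among the highest and lowest genes, the highest Igf2bp3-RIP levels, the known targets and family and the 5 differences, 32 values changed direction under an alternative, 624 kept direction and side of the threshold, 8 passed it in addition and 32 no longer passed it, most of these being the differences without an input library. Genes named for other reasons, such as Rictor, Psmd1, Peg3, Tead1, Map3k20, Anxa3 and Itgb5, are outside this count and their values are given where they are named. Without control Igf2bp3-RIP replicate 1 or 2 the test did not converge for 7 genes or 1 gene, Acta1 in both and Actg1 and Slc25a4 in the first, so they have no value there, and the remaining Igf2bp3-RIP library is assumed to vary like the input libraries. By position, log2 ratios were -0.36 for Zim1, -2.32 for Plekha3, -0.35 for Ulbp1, 1.77 for Hmga2, 3.43 for Cdk6 and 1.12 for Foxm1, and with peaks inside their gene alone -0.26 for Zim1, -2.23 for Plekha3 and -0.25 for Ulbp1. With the mean over peaks they were -0.28 for Nedd4, -0.26 for Macf1, -0.18 for Kif11, 0.28 for Cd24a, 0.37 for Foxm1 and -0.39 for Dhx9, and with the highest peak 0.24 for Cd24a and -0.078 for Dhx9. With library totals they were 0.11 for Hmga2, 1.15 for Cdk6, 1.10 for Cd24a, 0.39 for Ccne1, 0.20 for Foxm1 and 0.37 for Igf2bp3. Input times the divisor gave -0.54 for Cd44 and 0.36 for Cd24a. Myc was at -0.063 with DESeq2, -0.068 with DESeq2 size factors, -0.0026 with the replicate block, -0.35 without control Igf2bp3-RIP replicate 1 and -0.07 without control input replicate 2. Without control Igf2bp3-RIP replicate 1 or 2, Cd44 was at -0.42 or 0.83 and Cdk6 at 0.061 or -0.72.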

Other observations

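Some genes had a much higher ratio with peaks counted by position, while over all genes 1714 of 3973 were called higher as listed and 1589 of 3796 by position. Tead1, a transcription factor of the Hippo pathway that binds muscle gene promoters, had 54.5 and 57.0 CPM of input and 1828 and 2496 CPM of Igf2bp3-RIP over 11 peaks, a log2 ratio of 4.00 ± 0.24, against 3 listed peaks and -0.31. Zbtb20, a zinc finger repressor, had no listed peak and 1163 and 1252 CPM of Igf2bp3-RIP over 4 peaks by position (4.09 ± 0.13), without the peak of 16511 bases that it shares with Tigit, which was counted to Tigit. Lpp, a focal adhesion protein, went from 0.05 to 2.86 ± 0.17, and Map3k20, a kinase of the ribosome stress response, from -1.04 to 2.57 ± 0.24. These genes were chosen after their values were seen.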
